A study of Mus musculus with 6 samples.

Results

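The immediate early transcription factors described here were 10 genes of the AP-1, Egr, Atf and Klf families. They were Fos, Fosb, Fosl1, Jun, Junb, Egr1, Egr2, Egr3, Atf3 and Klf4. They were chosen by name, and every array probe annotated to one of these symbols was taken. This gave 15 of the 46120 probes on each array and 10 of the 17658 genes with a symbol. Of the 15 probes, 11 were above background on at least 2 of the 6 arrays and were tested, with at least 1 for each gene. This filter lets in a probe that is bright on only some arrays. Egr2 passed through array 1 of IKKa-null and of reconstituted cells, Atf3 through the 3 arrays numbered 1, and Fos through 3 arrays, 2 of them numbered 1. Egr3 probe 1 passed through the 4 arrays of IKKa-null and reconstituted cells, with no wild-type array above background. The tested probes are therefore not a neutral sample of the 15, neither between genotypes nor between numbers.

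The cells were mouse embryonic fibroblasts, connective tissue cells in culture, from 3 genotypes with 2 Illumina arrays each. The labels name them wild-type, IKKa-/- (here IKKa-null) and IKKa+/+reconstituted, and they name no agent other than fetal calf serum in the medium, which all groups shared. IKKa, an NF-kB pathway kinase, is encoded by Chuk. No probe is annotated with that symbol, so Chuk is not analysed here. Arrays within a genotype are numbered 1 and 2 in the labels. The labels do not say what the number stands for or whether the samples came from separate cultures, so a p-value here reflects the spread between these arrays alone, and that spread may be technical.

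The groups also differed in vector sequences. The probe for the SV40 large T antigen, which inactivates p53 and the retinoblastoma protein, gave deposited intensities of 4431.6 and 6076.1 in wild type. It gave 88.6 and 111.8 in IKKa-null cells, within background, and 212.3 and 203.2 in reconstituted cells, above background. The neomycin resistance probe gave 106.5 and 117.8 in wild type, within background, against 2433.1 and 2230.7 in IKKa-null and 3458.1 and 2638.1 in reconstituted cells. Loss of IKKa and these differences in the cell lines cannot be told apart in comparisons with wild type. Reconstituted and IKKa-null cells also differed in the large T antigen signal and in the fibroblast markers given below. Return of IKKa and those differences cannot be told apart either. Of 12 fibroblast markers with a probe, 8 were above background on both wild-type arrays, 11 on both IKKa-null arrays and 10 on both reconstituted arrays. Their summed signal was 7248 to 8122 in wild type, 9795 to 11080 in IKKa-null and 24940 to 28160 in reconstituted cells. The sum hides opposite moves. In IKKa-null against wild type, 2 of 11 tested were called higher and 2 lower, where 13.6% of genes were called higher and 15.5% lower. Pdgfra was 4.86-fold lower there (limma adjusted p = 0.000293) and S100a4 3.08-fold higher (0.0108). In reconstituted against IKKa-null cells 5 were called higher and 0 lower, led by Thy1 (39.5-fold, 0.000412). The shares over all genes there were 6.9% and 7.44%. Lum was not above background in any group, nor was Vim in wild type or reconstituted cells. All 5 muscle markers and the blood markers Ptprc, Adgre1 and Itgam were not above background in any group, whereas 1 of 5 blood markers was above background on both IKKa-null arrays. Epithelial markers with a probe numbered 6, of which 1 was above background on both wild-type arrays, 2 were on both IKKa-null arrays and 0 on both reconstituted arrays. Krt7, an epithelial keratin, was at least 4.69-fold higher in IKKa-null than wild-type cells (limma adjusted p = 0.000256) and at least 4.90-fold lower in reconstituted than in IKKa-null cells (0.000175). Krt14, a basal keratin, was 3.60-fold lower in IKKa-null than wild-type cells (0.000801). Of 6 endothelial markers, 1 was above background on both arrays in wild type and 2 in each other group, Flt1 with Eng. Eng was at least 1.87-fold higher in IKKa-null than wild-type cells (0.00194), and Flt1 was 3.89-fold lower (0.000867). The part of these marker differences in the results below was not tested. The arrays held between 9186 and 11056 probes above background, with the lowest number on reconstituted array 2. In bulk samples, fewer cells that express a gene and less RNA per cell cannot be told apart.

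Immediate early genes are transcribed within minutes of a stimulus such as serum, without new protein synthesis, and their messages are short-lived. Many are switched on when MAP kinases activate ternary complex factors bound with SRF at CArG boxes, and NF-kB acts at some of them. Fos and Jun proteins pair through leucine zippers to form AP-1, Egr proteins bind GC-rich DNA through zinc fingers, Atf3 belongs to the ATF/CREB family, and Klf4 is a zinc finger factor of the Krüppel-like family.

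Promoters of 7 of the 10 genes were used, as 11 windows of 250 bases before and 50 bases after an annotated start (RefSeq, GRCm38.p6). Fos, Junb and Egr2 are shown because their signals differed most between array numbers 1 and 2 together with that of Atf3. Capitals mark the CArG box in the Egr2 window, at bases 179 to 188. In the others they mark the letters TATAAA, at bases 218 to 223 in Fos and 251 to 256 in Junb. The Fos match lies before the annotated start. The Junb match lies past the 250 bases before it, so it is given as a match of letters and not as a TATA box of that start.
Egr2, chr10:67537619-67537918, plus strand: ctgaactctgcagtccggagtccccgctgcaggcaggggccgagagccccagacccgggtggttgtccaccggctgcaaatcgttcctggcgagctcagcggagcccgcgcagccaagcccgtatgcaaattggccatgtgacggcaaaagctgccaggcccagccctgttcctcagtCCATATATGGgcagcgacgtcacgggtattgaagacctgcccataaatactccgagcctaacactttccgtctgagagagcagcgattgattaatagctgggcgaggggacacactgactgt
Fos, chr12:85473640-85473939, plus strand: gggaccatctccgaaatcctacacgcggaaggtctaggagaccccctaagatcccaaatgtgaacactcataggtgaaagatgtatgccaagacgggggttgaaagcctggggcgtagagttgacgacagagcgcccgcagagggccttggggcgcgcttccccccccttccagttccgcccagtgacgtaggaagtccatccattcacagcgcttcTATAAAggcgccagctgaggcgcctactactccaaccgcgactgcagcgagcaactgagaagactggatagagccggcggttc
Junb, chr8:84978699-84978998, minus strand: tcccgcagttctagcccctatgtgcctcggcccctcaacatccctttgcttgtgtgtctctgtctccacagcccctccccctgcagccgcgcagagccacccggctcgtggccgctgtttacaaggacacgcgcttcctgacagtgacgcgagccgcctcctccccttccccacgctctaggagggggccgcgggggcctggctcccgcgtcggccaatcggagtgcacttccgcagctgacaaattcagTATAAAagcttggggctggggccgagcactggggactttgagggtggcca
On both strands of the 11 windows, a CArG box was found only in 4 of the 5 windows of Egr2, 3 of which overlap and share the same match. No window of Fosl1, Egr1 or Egr3 was searched, nor any sequence beyond the windows. A gene without a match here may therefore still hold one. A CArG box was present in 1.63% of all 32851 promoter windows of this length, and TATAAA in 13.6%. The NF-kB consensus site was found in the Fosb and Fos windows and in the Egr2 window that starts farthest upstream, and in 8.46% of all windows. The AP-1 sites TGACTCA and TGAGTCA (5.20% of all windows), the cAMP response element TGACGTCA (1.79%) and the Egr site GCGTGGGCG (0.612%) were found in none of the 11. These are matches of letters and were not tested as binding sites.

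Across genotypes, the members that were called higher outside wild type were Egr3, Fosb and Klf4, and no member was called lower in these 3 tests. Between IKKa-null and wild type, 2 of the 11 tested probes were called higher, Fosb probe 1 and Egr3 probe 1, where 14.9% of the 11647 tested probes were called higher and 14% lower (limma, Benjamini-Hochberg adjusted p under 0.05). In reconstituted against wild type, 4 of 11 were called higher, both Klf4 probes with Fosb probe 1 and Egr3 probe 1, where 17.4% of all probes were called higher and 19% lower. In reconstituted against IKKa-null cells, 1 of 11 was called higher, Klf4 probe 2, where 6.48% of all probes were called higher and 6.9% lower. Counted by gene, 2 of 10 were called higher in IKKa-null and 3 of 10 in reconstituted than in wild-type cells, beside 13.6% and 15.6% of all genes. Egr3 probe 1 entered the tests only through the arrays on which it was high, so its calls are not support. The counts for IKKa-null against wild type and reconstituted against IKKa-null lie near the shares over all probes. With 1 probe per gene, the median log2 difference of the 10 genes was 0.99 for IKKa-null minus wild type, beside -0.12 over all 7407 genes. It was 1.24 for reconstituted minus wild type, beside -0.14, and 0.58 for reconstituted minus IKKa-null, beside -0.02. These comparisons share arrays, since each genotype enters several.

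**Figure D1:**
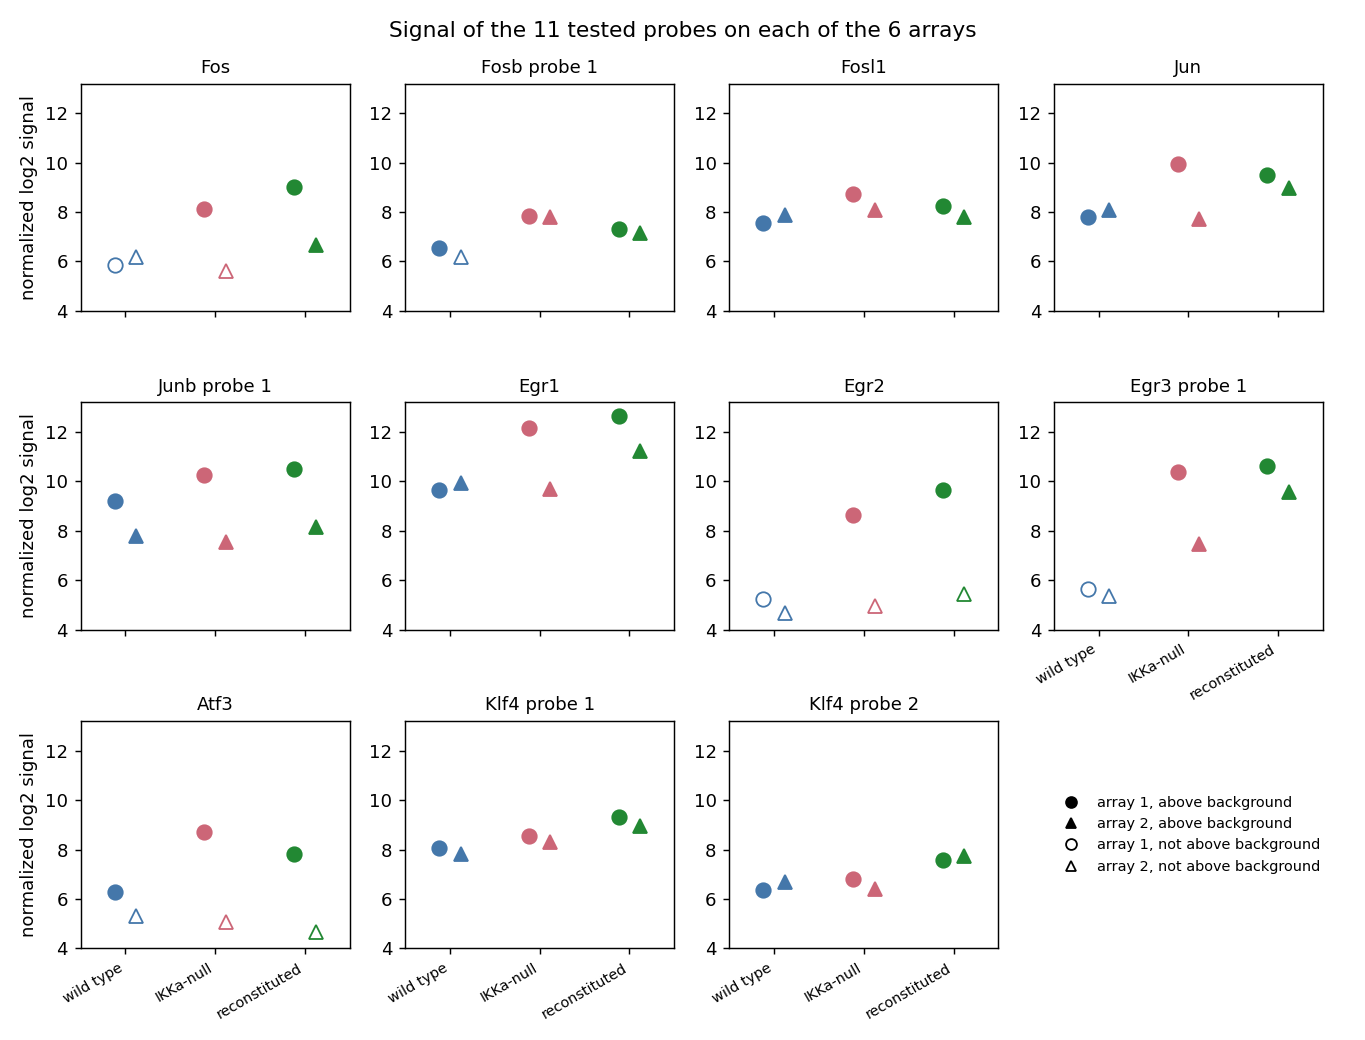
Normalized log2 signal (vertical axis) of each tested probe on each array, by genotype (horizontal axis); circles are array 1, triangles array 2, and open symbols were not above background. Fos, Egr2 and Atf3 sit higher on array 1 than on array 2 in IKKa-null and reconstituted cells, whereas the Fosb and Klf4 symbols of a genotype lie close together.

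Of the Fos subunits of AP-1, Fos itself was above background only in IKKa-null array 1 and on both reconstituted arrays. Its log2 signal was 5.86 and 6.16 in wild type (arrays 1 and 2), 8.12 and 5.61 in IKKa-null cells, and 9.01 and 6.68 in reconstituted cells. The IKKa-null arrays lay on either side of the wild-type arrays, and both reconstituted arrays lay above them. The log2 difference of IKKa-null from wild type was 0.86 ± 0.93 (SE, n = 2 per group), with an adjusted p of 0.521. That of reconstituted from wild type was 1.83 ± 0.93, at least 2.98-fold, with an adjusted p of 0.163.

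Fosb, a Fos relative best known for its truncated splice form in neurons, separated the genotypes with little spread by its probe 1. This probe gave 6.54 and 6.18 in wild type, 7.86 and 7.82 in IKKa-null and 7.31 and 7.13 in reconstituted cells, so the 3 groups did not overlap. IKKa-null cells were 2.79-fold higher than wild type (log2 difference 1.48 ± 0.19, adjusted p = 0.00247). Reconstituted cells were 1.82-fold higher than wild type (0.86 ± 0.19, adjusted p = 0.0139), a call lost without wild-type array 2 (0.0862), without reconstituted array 1 (0.0542) or under median scaling (0.0952). Reconstituted minus IKKa-null was -0.62 ± 0.19 and was not called (adjusted p = 0.081). Fosb probe 2 was above background on IKKa-null array 1 alone and was not tested. It gave 7.24 and 5.16 in IKKa-null, 4.81 and 4.81 in wild type and 4.79 and 5.09 in reconstituted cells, so its IKKa-null arrays lay 2.08 apart where those of probe 1 lay 0.04 apart. The calls for Fosb rest on 1 of its 2 probes. Fosl1, which encodes the Fos-related antigen FRA-1, gave 7.55 and 7.89 in wild type, 8.72 and 8.07 in IKKa-null and 8.23 and 7.79 in reconstituted cells. The IKKa-null arrays lay above the wild-type arrays, by a mean of 0.67 ± 0.28, but the difference was not called (adjusted p = 0.111).

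For both Jun subunits the 2 IKKa-null arrays lay farther apart than any genotype means did. Jun, the main partner of Fos, gave 7.79 and 8.09 in wild type, 9.95 and 7.70 in IKKa-null and 9.51 and 8.96 in reconstituted cells. IKKa-null array 1 was the brightest of the 6 and IKKa-null array 2 the dimmest. Reconstituted minus wild type was 1.30 ± 0.64 with an adjusted p of 0.153, which became 0.0144 when either IKKa-null array was left out of the shared estimate of spread. Junb, which in AP-1 often opposes Jun, gave 9.20 and 7.78 in wild type, 10.25 and 7.54 in IKKa-null and 10.52 and 8.17 in reconstituted cells with its probe 1. All 3 arrays numbered 1 lay above all 3 arrays numbered 2, and adjusted p-values between genotypes were 0.545 or more. The Junb probe 2, made against another transcript, was not above background on any array.

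The Egr factors included the only member that was not above background in wild type and was above it on all 4 other arrays. Egr3, which acts downstream of antigen receptor and growth factor signals, gave 5.63 and 5.36 with its probe 1 in wild type, where it was not well above background. It gave 10.36 and 7.48 in IKKa-null and 10.63 and 9.57 in reconstituted cells, and every one of these 4 arrays lay above both wild-type arrays. IKKa-null was at least 6.28-fold higher than wild type (measured log2 difference 3.43 ± 0.84, adjusted p = 0.0235), a call lost without wild-type array 1 (0.0813) or 2 (0.107), or with no filter on dim probes (0.0728). The log2 difference was 1.99 without IKKa-null array 1 and 4.87 without IKKa-null array 2. Reconstituted cells were at least 14.3-fold higher than wild type (4.61 ± 0.84, adjusted p = 0.0068). With 1 array left out, this log2 difference ranged from 4.08 to 5.14. Egr3 probe 1 entered the tests through the 4 arrays on which it was high. Its calls against wild type are therefore given as values of these arrays, not as support. Egr3 probe 2 was above background only on IKKa-null array 1 and did not show these levels, with mean log2 signals of 5.77, 5.82 and 5.504 in wild type, IKKa-null and reconstituted cells. The result for Egr3 therefore rests on 1 of its 2 probes.

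Egr1, the family member most widely used as a readout of growth factor signalling, had the brightest tested probe. Its deposited intensities were 820.5 and 1189.9 in wild type, 4948.2 and 1026.0 in IKKa-null and 7506.5 and 1894.8 in reconstituted cells. On the log2 scale after normalization these were 9.64 and 9.96, then 12.15 and 9.69, then 12.64 and 11.23. Both reconstituted arrays lay above both wild-type arrays, and IKKa-null array 2 lay between the wild-type arrays. Reconstituted minus wild type was 2.14 ± 0.78, a 4.40-fold difference with an adjusted p of 0.0698. This fell below the threshold under 6 of the other settings tried on all arrays and rose to 0.204 with no filter on dim probes. Of the 6, no background correction and the series matrix values are nearly the same data (0.0307 each). Median scaling, also among them, used 1 shared variance. Egr2, known for its part in hindbrain patterning and myelination, was above background only on IKKa-null array 1 and reconstituted array 1. Its deposited intensities were 119.7 and 98.3 in wild type, 489.0 and 113.2 in IKKa-null and 1040.5 and 134.2 in reconstituted cells. In log2 signal, the arrays numbered 1 and 2 gave 8.62 and 4.94 in IKKa-null and 9.64 and 5.45 in reconstituted cells, beside 5.25 and 4.67 in wild type. Adjusted p-values between genotypes were 0.214 or more. Under median scaling, Egr2 was called higher than wild type in IKKa-null (adjusted p = 4.88e-05) and in reconstituted cells (5.05e-10). In that setting limma estimated an infinite prior, so every probe was tested against 1 shared variance and the spread between a probe's own arrays did not enter.

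Atf3, a stress-induced factor that often represses transcription, was above background on the 3 arrays numbered 1 and on none of those numbered 2. Its log2 signal was 6.29 and 5.31 in wild type, 8.72 and 5.06 in IKKa-null and 7.83 and 4.67 in reconstituted cells. The mean differences between genotypes, from -0.64 to 1.09, were smaller than the SE of 1.33. Klf4, one of the factors used to reprogram fibroblasts to pluripotency, varied with genotype and little between arrays of a genotype. Klf4 probe 1 gave 8.08 and 7.84 in wild type, 8.53 and 8.31 in IKKa-null and 9.33 and 8.95 in reconstituted cells, without overlap between groups. Reconstituted cells were 2.27-fold higher than wild type (1.18 ± 0.21, adjusted p = 0.00602). Klf4 probe 2 gave 6.36 and 6.68 in wild type, 6.80 and 6.39 in IKKa-null and 7.59 and 7.73 in reconstituted cells, and was 2.20-fold higher in reconstituted than in wild-type cells (1.14 ± 0.21, adjusted p = 0.0076). Reconstituted minus IKKa-null was 1.07 ± 0.21 by probe 2 (2.10-fold, adjusted p = 0.0205) and 0.72 ± 0.21 by probe 1 (adjusted p = 0.0665). The call by probe 2 was lost without IKKa-null array 2 (0.125), without reconstituted array 2 (0.0908) and under median scaling (0.157). The Klf4 probe 3 was above background on 1 array. The summed fibroblast markers given above were also highest in reconstituted cells, and their part in the Klf4 difference was not tested.

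**Figure D2:**
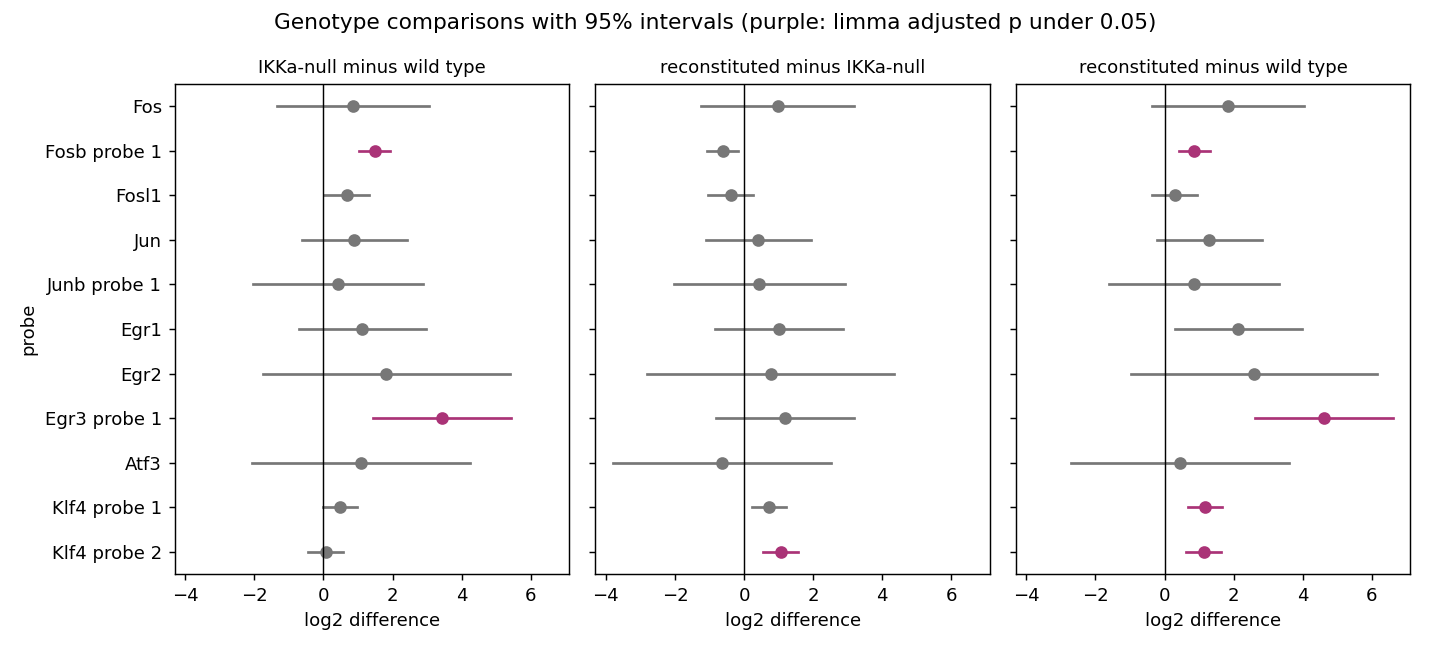
Log2 differences between genotypes (horizontal axis, 2 arrays per group) for each tested probe (vertical axis), with 95% intervals from the limma fit; purple marks an adjusted p under 0.05. Fosb and Klf4 have the narrowest intervals, and Egr2, Atf3 and Junb intervals span 0 in each of the 3 comparisons.

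Within IKKa-null and reconstituted cells, most members were brighter on array 1 than on array 2. In IKKa-null cells all 11 probes were brighter on array 1, 7 of them by more than 1 log2 unit, where 1.6% of all tested probes passed that size. In reconstituted cells 10 of 11 were brighter on array 1 and 6 by more than 1 unit, where 2.68% of all probes passed. In wild type 6 of 11 were brighter on array 1 and only Junb by more than 1 unit, where 1.24% of all probes passed. The median difference of the 11 probes was 2.46 in IKKa-null, 1.06 in reconstituted and 0.24 in wild-type cells, whereas the medians over all probes were -0.02, -0.0048 and -0.0055.

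The size of the difference varied between members. Egr2 differed by 3.69 in IKKa-null and 4.19 in reconstituted cells, and by 0.58 in wild type. Atf3 differed by 3.67, 3.16 and 0.98 in the same order. Junb differed by 2.71, 2.34 and 1.42, and thus in the same direction and by more than 1 unit in each genotype. Fos differed by 2.51, 2.33 and -0.30, so its wild-type arrays did not share the direction. Egr1 differed by 2.46, 1.41 and -0.32, Egr3 probe 1 by 2.88, 1.06 and 0.27, and Jun by 2.25, 0.54 and -0.29. Fosb probe 1 and both Klf4 probes differed by less than 0.5 in each genotype, from -0.32 to 0.41.

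In the fit of array number over the 3 genotypes, no member was called, where 0.0343% of the 11647 probes were. Without adjustment, 6 of the 11 member probes and 1094 of 11647 probes (9.39%) had a p under 0.05. Junb probe 1 came closest, with arrays numbered 1 higher by 2.16 ± 0.25 (4.46-fold, adjusted p = 0.124). It was called with no background correction (0.00463), after normexp (0.00699), with the series matrix values (0.00463), and among probes above background on all 6 arrays (0.015). Atf3 differed by 2.61 ± 0.48 (at least 2.62-fold, adjusted p = 0.237), and Egr2 by 2.82 ± 0.65 (at least 3.05-fold, adjusted p = 0.306). Under median scaling 6 members were called, Egr2 (1.33e-16), Atf3 (1.3e-13), Junb probe 1 (4.23e-10), Fos (9.84e-05), Egr3 probe 1 (0.000323) and Egr1 (0.00819), from the fit with 1 shared variance. Without either wild-type array, a fit that compares numbers within IKKa-null and reconstituted cells alone, 4 members were called, where 0.249% of all probes were called higher. These were Egr2 (3.94, adjusted p = 0.00262), Atf3 (3.42, 0.0033), Fos (2.42, 0.00813) and Junb (2.53, 0.00813). In these 2 genotypes Egr2 and Atf3 were above background only on arrays numbered 1 and so entered the tests through the side on which they were high, and their calls are given as values of these arrays, not as support. Fos was above background on both numbers only in reconstituted cells, and Junb on all 6 arrays. Without either IKKa-null array no probe was called, and 533 had an unadjusted p under 0.05. What the number stands for is not labelled.

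**Figure D3:**
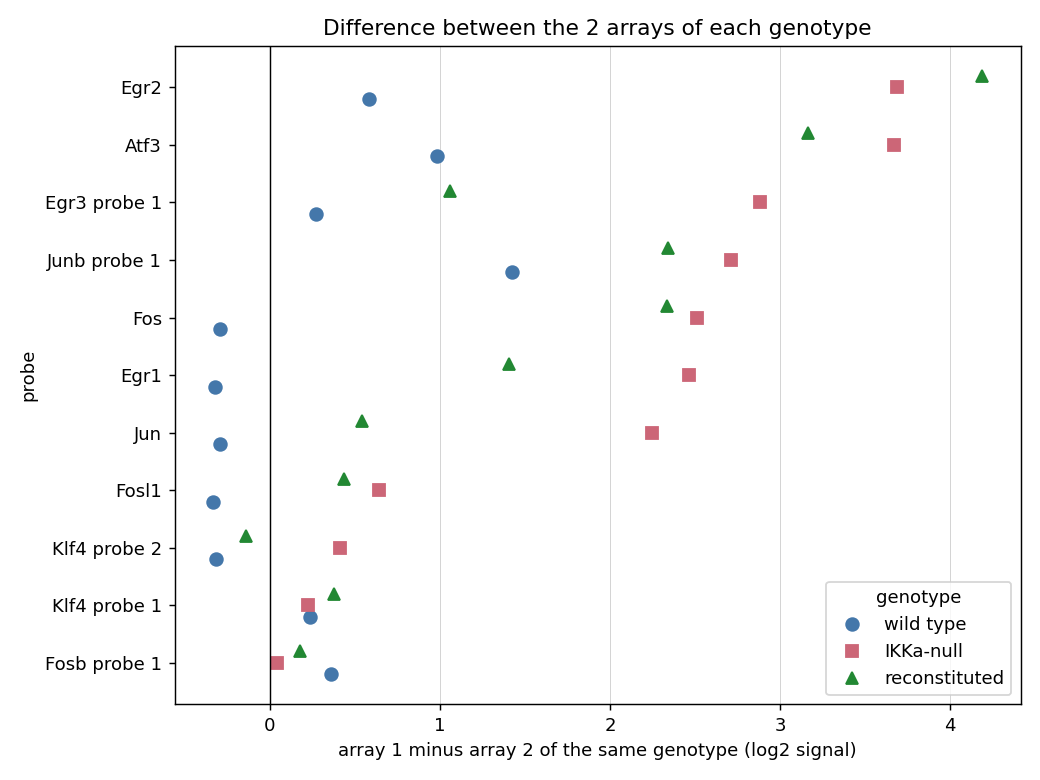
Log2 signal on array 1 minus that on array 2 of the same genotype (horizontal axis) for each tested probe (vertical axis); each symbol is a difference of 2 arrays, with no error bar. Differences reach 4.19 for Egr2 in reconstituted cells and stay below 0.5 for Fosb and Klf4.

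Whether the number difference itself differed between genotypes was tested in a fit chosen after seeing these values, with 1 residual degree of freedom. The difference in IKKa-null and reconstituted cells exceeded that in wild type by 3.36 ± 0.36 for Egr2 (adjusted p = 0.302), 2.72 ± 0.32 for Fos (0.302) and 2.43 ± 0.36 for Atf3 (0.304). With limma, 0 of 11647 probes were called, with 728 at an unadjusted p under 0.05. Of the 11 member probes, 7 had an unadjusted p under 0.05. The contrast was set by the pattern already seen in these arrays, and Egr2 and Atf3 entered the tests through arrays numbered 1. These values and counts are therefore a description of these arrays, not support.

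The genotype differences depended on which arrays were compared. Among arrays numbered 1, all 11 probes were brighter in IKKa-null than in wild type, with a median log2 difference of 2.16 and 9 over 1, where 10.4% of all probes were over 1. Among arrays numbered 2, 5 of 11 were brighter, with a median of -0.23 and 2 over 1, where 11.2% of all probes were. Those 2 were Fosb probe 1 and Egr3 probe 1, the members called over all arrays. For reconstituted minus wild type the medians were 1.54 among arrays numbered 1 and 0.88 among arrays numbered 2, with 9 and 4 probes over 1, where 11.4% and 12.8% of all probes were. For reconstituted minus IKKa-null they were 0.27 and 0.64, with 1 and 5 over 1, where 4.86% and 6.25% of all probes were.

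Other immediate early genes were also mostly brighter on array 1 in IKKa-null and reconstituted cells. The list was drawn up for genes that encode no transcription factor but holds 1, Nfil3, a bZIP repressor. Of 31 listed, 22 were tested, Nfil3 among them. It was brighter on array 1 by 0.72 in IKKa-null, 0.72 in reconstituted and 0.40 in wild-type cells and was not called. In IKKa-null cells 20 of 22 were brighter on array 1 with a median difference of 0.999, and in reconstituted cells 19 of 22 with a median of 1.04. In wild type 5 of 22 were brighter on array 1 and the median was -0.51. Ier3, a regulator of cell survival, gave 12.97 and 10.31 in IKKa-null, 12.30 and 10.00 in reconstituted and 10.67 and 10.62 in wild-type cells. None of the 22 was called for the number over all 3 genotypes, where 0.0405% of genes were called higher.

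Between genotypes, 6 of these 22 genes were called higher in IKKa-null than in wild type and none lower, where 13.6% of the 7407 genes were called higher and 15.5% lower. Ptgs2, the inducible prostaglandin synthase, gave 8.30 and 7.22 in IKKa-null against 4.97 and 5.82 in wild type, where it was not well above background (at least 2.81-fold, adjusted p = 0.00919). Dusp1, a phosphatase that inactivates MAP kinases, was 4.25-fold higher (adjusted p = 0.0169). Phlda3, a p53-induced inhibitor of Akt, was 3.80-fold higher (0.0012), and Errfi1, an inhibitor of the EGF receptor, 3.20-fold (0.0358). In reconstituted against IKKa-null cells none was called higher and 2 were called lower, Dusp4 by 4.23-fold (0.0405) and Ptgs2 by 3.67-fold (0.0354), where 6.9% of genes were called higher and 7.44% lower. In reconstituted against wild type 3 were called higher, Errfi1 by 4.95-fold (0.00981), Thbs1 by at least 1.34-fold (0.0166) and Phlda3 by 2.21-fold (0.00664), where 15.6% of genes were called higher and 21.3% lower.

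**Figure D4:**
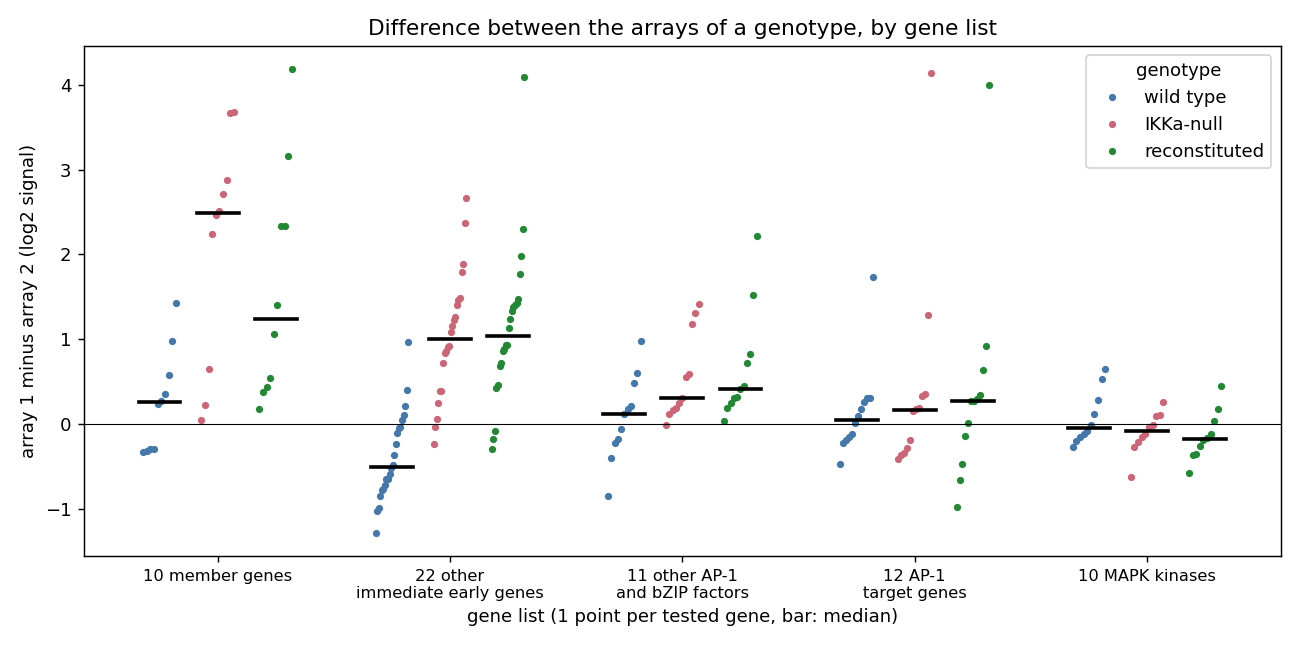
Log2 signal on array 1 minus array 2 (vertical axis) for each tested gene of 5 lists (horizontal axis), coloured by genotype, with a bar at the median. The medians of the 22 other immediate early genes are 0.999 in IKKa-null and 1.04 in reconstituted cells and -0.51 in wild type, and those of the MAPK kinases lie between -0.17 and -0.05.

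Related factors outside the 10 genes were described in the same way. Of 11 tested AP-1 and bZIP factors, 3 were brighter on array 1 by more than 1 unit in IKKa-null, 2 in reconstituted and 0 in wild-type cells. Over all tested probes the shares were 1.6%, 2.68% and 1.24% in the same order. The medians of the 11 were 0.30, 0.42 and 0.12. Fosl2, another Fos relative, was the only one of the 11 called higher in IKKa-null than in wild type (1.88-fold, adjusted p = 0.015), and it was also higher in reconstituted cells (2.04-fold, 0.00771). Jdp2, a repressor of AP-1, was 1.47-fold lower in IKKa-null cells than in the wild type (0.0475). The list of Egr, Klf and Nr4a factors and Egr corepressors also holds Myc, Srf, Csrnp1 and Maff, which are none of these. Maff was also counted among the AP-1 and bZIP factors, and Srf among SRF and its cofactors. Of the 13 tested genes of the list, 1 was called higher and 0 lower in IKKa-null than wild-type cells. Over all genes 13.6% were called higher and 15.5% lower. In reconstituted against wild-type cells 4 were called higher and 1 lower, where 15.6% of all genes were called higher and 21.3% lower. Nab2, a corepressor that binds Egr proteins, was at least 1.51-fold higher in IKKa-null (0.0232) and at least 2.27-fold higher in reconstituted cells (0.00236). Nr4a2, an immediate early nuclear receptor, was 3.07-fold higher in reconstituted than in wild-type cells (0.0173). Klf5, a growth-promoting relative of Klf4, was 3.88-fold lower in reconstituted than in IKKa-null cells (0.00676) and 2.68-fold lower than in wild type (0.0102), the direction opposite to that of Klf4.

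The kinases upstream of these genes differed little between arrays. Of 10 tested kinases of the MAPK pathways, 4 were brighter on wild-type array 1, 3 on IKKa-null array 1 and 3 on reconstituted array 1, with none over 1 unit. Against wild type, 1 was called higher and 3 lower in IKKa-null, and 0 higher and 4 lower in reconstituted cells. The shares over all genes were 13.6% higher and 15.5% lower for IKKa-null, and 15.6% higher and 21.3% lower for reconstituted cells. Egfr was 2.07-fold higher in IKKa-null than in wild type (adjusted p = 0.0289) and 2.65-fold lower in reconstituted than in IKKa-null cells (0.0186). Map3k1, which feeds the JNK and NF-kB pathways, was 2.25-fold lower in IKKa-null (0.0134), and Mapk14, the p38alpha kinase, was 1.70-fold lower (0.0434). Of 12 tested feedback inhibitors of MAPK signalling, a list that shares Dusp1, Dusp2, Dusp4, Dusp5, Dusp6 and Errfi1 with the immediate early genes above, 3 were called higher and 0 lower in IKKa-null, and 3 higher and 1 lower in reconstituted, than in wild type, beside the shares just given. Spry4, which restrains receptor tyrosine kinase signalling, gave 7.28 and 7.39 in reconstituted cells and was not well above background in the others. It was at least 2.53-fold higher in reconstituted than in IKKa-null cells (0.00663). In that comparison 1 of the 12 was called higher, Spry4, and 2 lower, Dusp4 and Dusp14, where 6.9% of all genes were called higher and 7.44% lower. Dusp14 was 3.35-fold lower there (adjusted p = 0.00364) and 3.20-fold lower in reconstituted than in wild-type cells (0.00233). Of 4 tested genes for SRF and its cofactors, 1 was called higher in IKKa-null and in reconstituted than in wild-type cells, Fhl2, by 2.61-fold (0.00513) and 2.33-fold (0.0065).

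Of 12 tested AP-1 target genes, 1 was called higher in IKKa-null cells than in wild type and 1 lower, and 1 was called higher and 2 lower in reconstituted cells. Over all genes 13.6% were called higher and 15.5% lower for IKKa-null, and 15.6% higher and 21.3% lower for reconstituted cells. Between arrays of a genotype, the median of the 12 was 0.17 in IKKa-null, 0.27 in reconstituted and 0.05 in wild-type cells. The chemokine gene Ccl2 was brighter on array 1 by 4.146, 4.0004 and 1.739 in the same order, and Plau, which encodes urokinase, by 1.29, 0.92 and 0.30. Ccnd1, which encodes cyclin D1, gave 13.81 and 14.16 in IKKa-null, 13.21 and 13.36 in reconstituted and 11.63 and 11.79 in wild-type cells (4.86-fold, adjusted p = 0.000483, and 2.98-fold, 0.00177). Ccnd1 was brighter on array 2 by less than 0.5 in each genotype. Mmp13, a collagenase, was not well above background in reconstituted cells and at least 1.5-fold lower there than in wild type (0.00364).

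The genes whose signal was most like that of a member were sought among 7396 genes by Pearson correlation of log2 signal over the 6 arrays. For Junb these were the chemokines Ccl7 (r = 0.992) and Ccl2 (0.992) and the NF-kB cofactor gene Nfkbiz (0.991). Ccl2 gave 11.73 and 7.59 in IKKa-null, 12.07 and 8.07 in reconstituted and 9.95 and 8.21 in wild-type cells. For Egr2 the chemokine gene Cxcl2 led (0.9901), with 7.85 and 4.73, 8.41 and 4.90, and 5.22 and 4.94 in the same order. For Atf3 they were Ier3 (0.981), the cytokine gene Csf2 (0.979) and the chaperone gene Hsp90b1 (0.968). For Egr3 Errfi1 led (0.995), for Fosl1 Phlda1 (0.986), for Fosb Vopp1 (0.997), for Klf4 Chsy1 (0.993), for Egr1 Sgms2 (0.993), for Jun Ino80 (0.9898) and for Fos Togaram1 (0.975). These coefficients are descriptions over 6 arrays that share genotype and number, and they were the highest of 7396 by choice.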

How the data were processed

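The deposited array files hold 1 intensity per target for 46120 targets, exported by BeadStudio 1.5.0.34 without normalization per the file headers. The authors' series matrix holds a second set of intensity values, equal to the array intensities once quantile-normalized on the linear scale; the sources used here do not give how it was made. Through their 6 values, 46116 targets could be tied to 1 matrix probe and named through the platform annotation, and 29534 had a single symbol.

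Background was corrected with nec of limma 3.58.1 (R 4.3.3), using 394 background probes as negative controls and an offset of 16, followed by quantile normalization and log2. A probe was above background where under 1% of background probes reached its signal. The 11647 gene probes above background on at least 2 arrays were tested with lmFit and eBayes on all 6 arrays (3 residual degrees of freedom for genotype, 2 for number), two-sided, with Benjamini-Hochberg adjustment over all of them, called under 0.05. The fit was tested on simulated data. A gene with several probes is counted by its brightest probe. Where a group was not well above background on any array, a fold is a lower bound against the lowest signal above background on each array. It bounds the ratio of the means measured here and takes no account of their SE. The median deposited intensity per array was 111.1 to 123.1, against 100.8 to 114.45 for background probes. Precision is limited by the number of arrays.

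The members, the lists and the rule for named genes were chosen with earlier results of these data known. The rule names all members, up to 4 called genes per list and comparison with the largest changes and no overlap between groups, and the 3 genes most correlated with each member, of which the text gives those for Junb and Atf3 and the highest for the others. Ier3 was also named for its place in both. Alternatives changed the background correction, the normalization, the filter on dim probes, the source of the values, and the arrays included.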

Additional observations from a re-analysis of the deposited data

How the results depend on the processing

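Over settings that used all arrays, 288 of 321 member values kept their direction and side of the threshold, 28 became called, 3 lost the call and 2 reversed. Both reversals were the number difference of Klf4 probe 2, which was -0.01 and became 0.12 under median scaling and 0.064 under cyclic loess, uncalled in each. Leaving out 1 array at a time, 214 of 264 values kept direction and call and 27 reversed; in a group left with 1 array, that array is assumed to vary like the others. The values that reversed ranged as follows for IKKa-null minus wild type: Fos -0.40 to 2.11, Jun -0.24 to 2.01, Junb probe 1 -0.94 to 1.77, Egr1 -0.11 to 2.36, Egr2 -0.023 to 3.66, Atf3 -0.75 to 2.92 and Klf4 probe 2 -0.13 to 0.28. For reconstituted minus IKKa-null the ranges were Fos -0.28 to 2.23, Jun -0.71 to 1.53, Junb probe 1 -0.91 to 1.80, Egr1 -0.22 to 2.24, Egr2 -1.33 to 2.86, Egr3 probe 1 -0.26 to 2.62 and Atf3 -2.47 to 1.20. For reconstituted minus wild type they were Junb probe 1 -0.31 to 2.03 and Atf3 -1.13 to 2.03, and for the number Klf4 probe 2 -0.23 to 0.14. None of these was called with all arrays, and each reversal between genotypes follows from which array of the differing pair was left out. For the number, Klf4 probe 2 gave the same reversed value, 0.14, without either wild-type array.

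The count of called probes in all ranged, with 1 array left out, from 1492 to 3505 for IKKa-null minus wild type (3375 with all), 554 to 1275 for reconstituted minus IKKa-null (1559), 2079 to 3761 for reconstituted minus wild type (4237) and 0 to 33 for the number (4). Under median scaling the counts were 1888, 923, 2359 and 70; the share called higher was 70.3% against 51.5% for IKKa-null minus wild type, 37.8% against 48.4% for reconstituted minus IKKa-null and 94.3% against 75% for the number. That scaling moved the median of all probes to -0.17 for reconstituted minus IKKa-null, -0.13 for reconstituted minus wild type and 0.10 for the number. In it limma tested all probes against 1 shared variance, where the main setting had a prior of 4.004 degrees of freedom for genotype and 4.339 for number. For the number, 44 probes were called with no background correction, 38 after normexp with offset 50, 44 with the series matrix values, 22 among probes above background on all 6 arrays, and 0 with no filter on dim probes, where limma gave 3168 of 45191 an unadjusted p under 0.05.

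Same-numbered arrays deviated together with correlations of 0.298 for wild type and IKKa-null, 0.0511 for wild type and reconstituted and 0.371 for IKKa-null and reconstituted, so the number was not taken to pair samples. With the number as a replicate block, 3619, 1696 and 4518 probes were called in the 3 genotype comparisons. Among members the block added the calls of Klf4 probe 1 in reconstituted minus IKKa-null (adjusted p = 0.0379) and of Egr1 (0.0294) and Egr2 (0.043) in reconstituted minus wild type. With 2 arrays per group and members near background in some groups, a missed threshold does not show that levels were alike.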
